A study of Mus musculus with 6 samples.

Results

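*Dnajc3* and *Trip11* are a pair of genes that act early in the secretory pathway, the first in the endoplasmic reticulum (ER) and the second at the Golgi. They make up 2 of the 312 genes in the table that the authors deposited for this experiment, and were taken by their symbols (gene IDs 100037258 and 109181). They were picked on their measured difference in TPM and depth-scaled count between the ages, so these values are given below as a description, with no test. RNA was sequenced from wild-type mice of 2 ages, postnatal day 6 (P6) and day 56 (P56), with 3 libraries at each age and no treatment or engineered allele in either group. The labels call the material adipose tissue macrophages (ATMs), whereas the study's methods name depots of inguinal adipose tissue (iAT) from the inbred strain C57BL/6. None of 20 macrophage markers and none of 12 adipocyte markers was among the 312 genes, so these marker lists could not check either name. The labels do not say whether the 3 libraries of an age came from separate mice, so errors and p-values measure the spread between these libraries, which may be technical.

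Secreted and membrane proteins enter the ER as unfolded chains, are folded there with the help of chaperones, and are then carried in vesicles to the Golgi for further processing. *Dnajc3* encodes a co-chaperone of the ER lumen with a J domain, which passes unfolded chains to the chaperone Hspa5 (BiP). The protein is also known as an inhibitor of kinases that phosphorylate the translation factor eIF2α, and its gene is a known target of the unfolded protein response, the programme that cells start when unfolded protein builds up in the ER. *Trip11* encodes a golgin, a long coiled-coil protein that stands on the cis side of the Golgi, catches incoming vesicles and holds a ciliary transport protein there. Loss of the human gene is known for a severe skeletal dysplasia, in which cartilage cells fail to secrete matrix normally.

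The promoter of each gene is shown because a known control element of the unfolded protein response can be read in the first and not in the second. In the RefSeq mouse assembly GRCm38.p6, the stretch before the start of *Dnajc3* lies on the plus strand of chromosome 14 (chr14:118937682-118937931), and that of *Trip11* on the minus strand of chromosome 12 (chr12:101913268-101913421). The *Trip11* stretch is shorter because the GENCODE annotation starts this gene 96 bases upstream of RefSeq, and only bases before both starts are printed. Both are written 5′ to 3′ along the gene, with capitals for every CCAAT and CCACG on either strand (ATTGG and CGTGG are the same motifs on the opposite strand).
Dnajc3: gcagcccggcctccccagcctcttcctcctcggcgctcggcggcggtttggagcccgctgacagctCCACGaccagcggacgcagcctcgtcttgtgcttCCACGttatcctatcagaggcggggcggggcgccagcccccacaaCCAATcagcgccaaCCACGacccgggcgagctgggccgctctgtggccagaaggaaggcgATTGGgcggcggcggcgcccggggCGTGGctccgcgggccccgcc
Trip11: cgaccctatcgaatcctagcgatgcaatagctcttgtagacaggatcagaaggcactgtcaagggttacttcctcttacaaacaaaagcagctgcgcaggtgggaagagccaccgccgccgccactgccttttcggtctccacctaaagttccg

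The ER stress element is a CCAAT box followed, after 9 bases of any kind, by CCACG. It was searched on both strands from 250 bases before to 50 bases after each start. *Dnajc3* held 1 such element, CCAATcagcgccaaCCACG, between 105 and 87 bases before the start (chr14:118937827-118937845). The element overlaps the plain CCAAT and CCACG motifs that form its ends. It was found in 39 of 32851 promoters of the RefSeq table (0.119%), and *Dnajc3* was the only holder among the 245 of 312 listed genes with a promoter in that table. *Trip11* held none. The shorter ER stress element II (ATTGG, 1 base of any kind, CCACG) was found in 12 promoters of the whole table and in neither gene.

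Beside the full element, the *Dnajc3* promoter held another CCAAT, a further 3 CCACG, 1 ACGTG and 2 GGGCGG, short motifs that were present in 37.4%, 32.8%, 19.6% and 35.7% of all promoters. Counted by gene, 41.1%, 35.5%, 21.8% and 38.2% of all 27025 genes held them in at least 1 promoter. Of the 245 listed genes, 41.2%, 49.0%, 24.9% and 73.1% did. *Trip11* held a single CCACG, between 40 and 36 bases before its RefSeq start and outside the printed stretch, but lacked the other motifs named for *Dnajc3*. Neither gene held TGACGTGG (unfolded protein response element) or TGACGTCA (cAMP response element). Also absent from both were TGATGCAAT, TGATGAAAC, TGATGCAAC and TTGCATCA, letters of composite elements of the stress response factors ATF4 and CHOP. GC content was 73.6% over the 250 printed bases of *Dnajc3*. Over the 250 bases before the start, the median was 52.4% for all promoters and 62.4% for those of listed genes. For *Trip11* it was 53.9% over its 154 printed bases, which leave out the 96 nearest its RefSeq start. That value is therefore not over a like window and is not compared. A match of letters is a description of the window and says nothing on whether a factor was bound there.

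Of 612 genes in 9 lists of the secretory pathway and its chaperones, 491 had a promoter in the RefSeq table. The ER stress element was held by 0.137% of all 27025 genes there and by 10 of these 491 (2.04%). They were *Alg12*, *Calr*, *Canx*, *Creld2*, *Derl3*, *Ero1b*, *Hsp90b1*, *Hspa5*, *Pdia6* and *Syvn1*, none of which was in the deposited table. The elements of 5 of the 10 holders are set beside that of *Dnajc3* to show the letters they share. Capitals mark the fixed ends and lower case the 9 free bases, written so that CCAAT comes first.
Dnajc3: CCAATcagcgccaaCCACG
Hspa5: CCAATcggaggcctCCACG
Hsp90b1: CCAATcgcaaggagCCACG
Pdia6: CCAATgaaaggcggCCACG
Syvn1: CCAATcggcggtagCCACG
Canx: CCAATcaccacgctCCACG
*Hspa5* and *Hsp90b1* encode the main chaperones of the ER lumen, *Pdia6* a disulfide isomerase, *Canx* the lectin chaperone calnexin and *Syvn1* a ubiquitin ligase of ER-associated degradation. The free bases were 66.7% G or C in *Dnajc3* and between 66.7% and 77.8% in the others. The elements lie at chr2:34772025-34772043 (*Hspa5*), chr10:86705638-86705656 (*Hsp90b1*), chr12:17266491-17266509 (*Pdia6*), chr19:6046532-6046550 (*Syvn1*) and chr11:50325800-50325818 (*Canx*), all on the strand of their gene. *Hsp90b1* holds another on the opposite strand, which is not printed. Among the holders not shown, *Alg12* has its element on the strand of the gene. *Calr*, *Creld2*, *Derl3* and *Ero1b* have theirs on the opposite strand, so the shared strand holds only for the elements printed.

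Levels are given as TPM, the length-corrected share of a transcript among all those of a library, and as read counts divided by the relative depth of the library. The listed genes covered 2.30% to 2.69% of each library's TPM and 497044 to 816309 counts, so their totals are no measure of depth. Relative depth was instead taken from the ratio of count to FPKM (fragment counts corrected for length and for the library's total), and was 1.09 to 1.16 at P6 and 0.795 to 0.937 at P56. Of 310 genes averaging 10 counts or more, 105 fell and 94 rose at P6 relative to P56 (33.9% and 30.3%, edgeR adjusted p under 0.05), and 64.2% were called in either direction. That share is the background for every count below, in a table of selected genes whose selection rule no source used here states. In bulk RNA, fewer cells of a type and less RNA per cell cannot be told apart.

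*Dnajc3* was lower at P6 than at P56 in every library. It stood at 31.8, 30.1 and 29.2 TPM in P6 replicates 1, 2 and 3, and at 54.2, 58.0 and 49.7 TPM in P56 replicates 1, 2 and 3. The ages did not overlap, and the lowest P56 library lay 17.9 TPM above the highest P6 library. The mean was 30.3 ± 1.34 TPM at P6 and 54.0 ± 4.15 TPM at P56 (SD, n = 3), 43.8% lower at P6. In depth-scaled counts the means were 1163 ± 35.5 and 1904 ± 96.9 (SD, n = 3), 38.9% lower at P6. The raw counts, 1356, 1255 and 1321 at P6 against 1739, 1790 and 1462 at P56, did not overlap either, although the P6 libraries were the deeper ones.

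*Trip11* was likewise lower at P6 per transcript, by a smaller margin. It stood at 10.7, 11.2 and 10.2 TPM across the P6 libraries, against 16.0, 15.2 and 14.0 TPM at P56. These ranges did not overlap and lay 2.77 TPM apart. The mean was 10.7 ± 0.507 TPM at P6 and 15.1 ± 1.0 TPM at P56 (SD, n = 3), 28.9% lower at P6. In depth-scaled counts it was 744 ± 35.6 and 978 ± 29.5 (SD, n = 3), 23.9% lower at P6. Here the raw counts did overlap, at 823, 857 and 834 reads for P6 and 943, 871 and 753 reads for P56, with means that differed by 2.06%. The lower level of *Trip11* at P6 therefore appears only once depth is taken into account, while that of *Dnajc3* is also seen without it. Across the whole table, 37.5% of the genes were lower at P6 without overlap in TPM and 33.7% in depth-scaled counts, and both genes belong to that part by the choice made here.

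**Figure D1:**
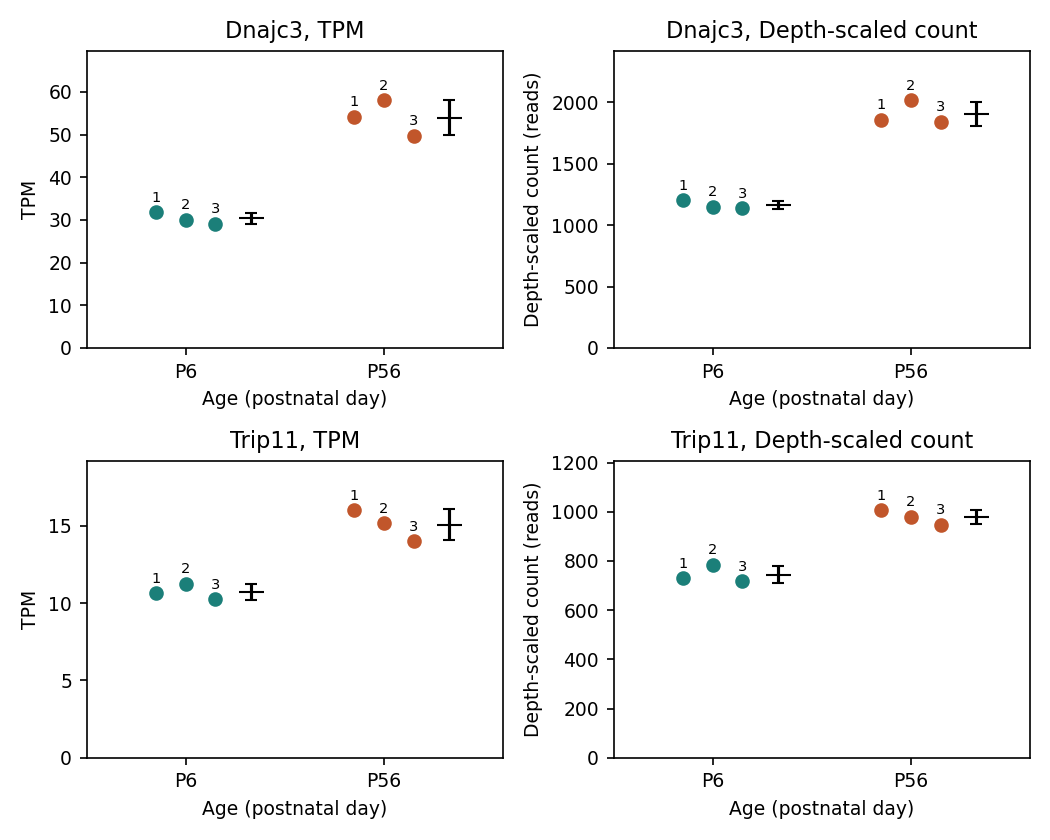
Levels of *Dnajc3* (top) and *Trip11* (bottom) by age, as TPM (left) and as depth-scaled read counts (right). Points are libraries with their replicate number, bars are mean and SD (n = 3), and all axes start at 0. In each panel the 3 P56 libraries lie above the 3 P6 libraries.

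In the fit over the whole table, the log2 fold change of P6 over P56 was -0.71 (SE 0.08) for *Dnajc3* and -0.39 (SE 0.09) for *Trip11*, folds of 0.611 and 0.761. The median over the 310 genes was -0.03, with 35 genes below *Dnajc3* and 75 below *Trip11*. On the log2(TPM + 1) scale the differences were -0.81 and -0.46, beside a table median of -0.14. If all libraries are instead taken as equally deep, the fold changes were -0.34 (SE 0.16) and -0.03 (SE 0.16) with a table median of 0.34, so that *Trip11* then shows hardly any difference between the ages. Relative to the table median of each scaling, *Dnajc3* and *Trip11* lay below it in all 3.

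The replicates of both genes lay close together. The coefficient of variation of the depth-scaled count was 3.05% at P6 and 5.09% at P56 for *Dnajc3*, where counting error alone gives 2.76% and 2.45%. For *Trip11* it was 4.78% and 3.01%, with 3.45% and 3.42% from counting. The median over the 310 genes was 6.21% at P6 and 10.5% at P56. At P6, 66 of these genes had a smaller coefficient than *Dnajc3* and 118 a smaller one than *Trip11*. At P56 these numbers were 51 and 22. P56 replicate 3, the shallowest library, lay below the other P56 libraries by a median log2 deviation of -0.18 over the table, and by -0.07 for each of *Dnajc3* and *Trip11*.

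The level of *Dnajc3* exceeded that of *Trip11* in every library, and the ratio between them, which does not depend on the depth of a library, was lower at P56. *Trip11* stood at 0.335, 0.374 and 0.351 of the *Dnajc3* TPM at P6 and at 0.295, 0.261 and 0.282 of it at P56. The means were 0.353 ± 0.0195 and 0.279 ± 0.0171 (SD, n = 3) and the ages did not overlap. In raw counts, which are not corrected for length, the ratio was 0.640 ± 0.0388 at P6 and 0.515 ± 0.0278 at P56 (SD, n = 3), again with no overlap. The effective length of *Trip11* relative to *Dnajc3*, read from counts and FPKM, was 1.80 to 1.83 at P6 and 1.83 to 1.86 at P56, a shift far smaller than that of the ratio. The share of other gene pairs whose ratios also part by age was not computed. Both genes were picked on their difference between the ages, so the ratio is a description of this pair only.

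**Figure D2:**
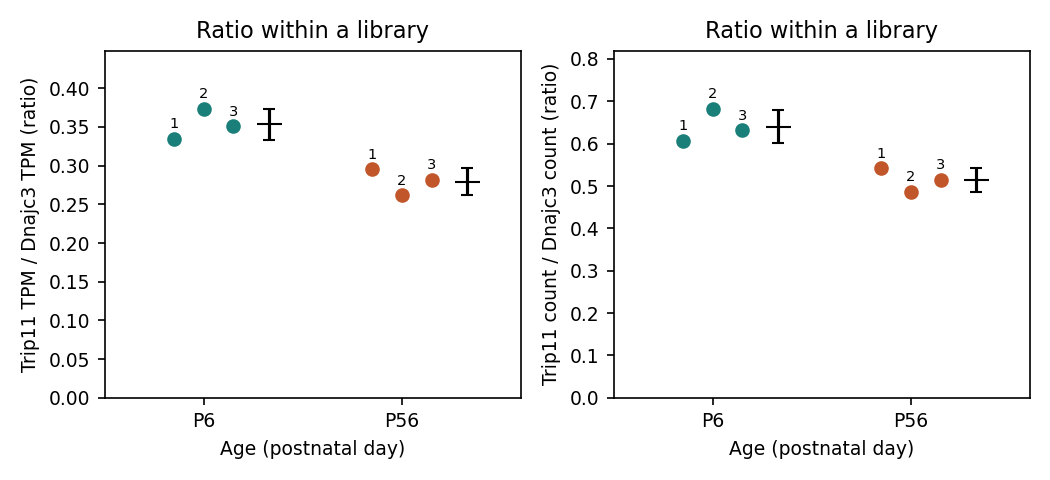
Ratio of *Trip11* to *Dnajc3* within each library, in TPM (left) and raw counts (right), by age. Points are libraries with their replicate number, bars are mean and SD (n = 3), and axes start at 0. All P6 libraries lie above all P56 libraries, with means of 0.353 and 0.279 in TPM.

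In the GENCODE annotation of GRCm38, *Dnajc3* spans 43722 bp with 1 transcript of 12 exons and 5141 bp, and no other gene overlaps it. *Trip11* spans 79225 bp with 6 transcripts, 4 of them coding, the longest of 21 exons and 9873 bp. Over 306 listed genes the median longest coding transcript was 6578 bp, with 119 shorter than that of *Dnajc3* and 235 shorter than that of *Trip11*. On the opposite strand of *Trip11* lie the pseudogenes *Gm20701* and *Gm20702*, which touch no exon, and *Gm20036*, which shares 28 bp with the gene and touches an exon. No source used here says whether counting used the strand, so reads from those 28 bp could not be assigned to a strand. The counts of both genes were whole numbers in all libraries, while 23 of the 312 genes had a fractional count.

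By mean TPM, *Dnajc3* ranked 114 of 312 at P6 and 78 at P56. Its neighbours in that order were *Itga1* (30.7 ± 3.19 TPM) and *Luzp1* (30.1 ± 2.71 TPM) at P6 and *Arid5b* (54.1 ± 8.11 TPM) and *Lbh* (53.6 ± 2.64 TPM) at P56 (SD, n = 3). They lie close to it because they were picked by rank. *Trip11* ranked 221 at P6 and 196 at P56. Its neighbours, picked in the same way, were *Bahcc1* (10.8 ± 0.396 TPM) and *Herc2* (10.5 ± 0.506 TPM) at P6, and *Pde3a* (15.1 ± 2.93 TPM) and *Lmod1* (14.6 ± 3.28 TPM) at P56 (SD, n = 3). The rank of *Dnajc3* in single libraries ran from 114 to 117 at P6 and from 77 to 85 at P56, that of *Trip11* from 215 to 222 and from 188 to 199. *Dnajc3* thus lay above the table median of 19.5 TPM at P6 and 22.1 TPM at P56, and *Trip11* below it.

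**Figure D3:**
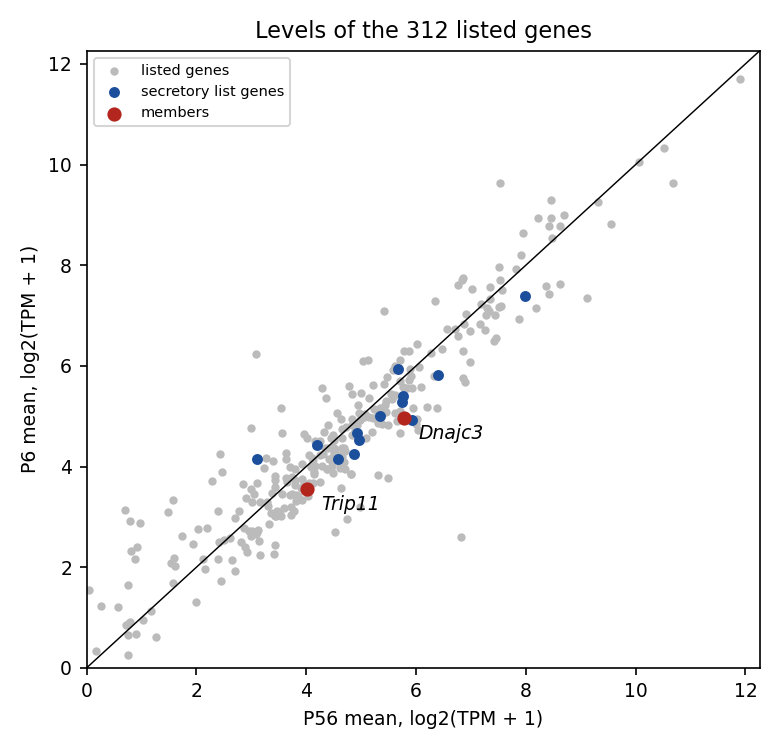
Mean level of the 312 listed genes at P56 (horizontal axis) and P6 (vertical axis), as log2(mean TPM + 1), with *Dnajc3*, *Trip11* and 13 secretory list genes in colour. The line marks equal levels. *Dnajc3* and *Trip11* lie below the line, with *Dnajc3* above and *Trip11* below the table medians of 19.5 TPM (P6) and 22.1 TPM (P56).

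The lists of other secretory genes put these values beside the rest of the pathway, as far as the table holds it. Of the 612 list genes, 13 were among the 312, and 12 of these (92.3%) passed the test at the recovered depth, 9 lower and 3 higher at P6, where 64.2% of all genes tested were called. Lower calls were 69.2% of the 13 against 33.9% of the table, higher calls 23.1% against 30.3%. The lists were chosen with earlier results of these data known, and some secretory genes of the table stood outside them. These shares therefore describe the 13 genes and are no independent support. The median log2 fold change was -0.33 over the 13 genes and -0.03 over the table. With equal library sizes only 4 of the 13 were called, 3 higher and 1 lower, where 58.7% of the table was called, 47.7% higher and 11% lower. With limma on log2(TPM + 1), 11 were called, 2 higher and 9 lower, where 60% of the table was called, 24.5% higher and 35.5% lower.

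Among 72 ER chaperones and folding enzymes, 3 were in the table. *Hyou1*, the large HSP70-like chaperone and nucleotide exchange factor that works on Hspa5 as Dnajc3 does, stood at 30.2, 28.5 and 29.7 TPM at P6 and 66.9, 61.4 and 52.2 TPM at P56. It fell by 0.91 on the log2 scale (SE 0.09, edgeR adjusted p = 5.76e-06), and was called with equal library sizes too (-0.55). *Tmx4*, a membrane-bound thioredoxin-like protein of the ER, went the other way, with 18.3, 17.7 and 14.3 TPM at P6 and 7.66, 8.53 and 6.59 TPM at P56 (log2 fold change 1.26, SE 0.12, edgeR adjusted p = 4.93e-06). *Uggt1*, the folding sensor that reglucosylates misfolded glycoproteins, was not called, with 24.4 ± 1.69 TPM at P6 and 29.2 ± 3.99 TPM at P56 (SD, n = 3, log2 fold change -0.14, SE 0.09, edgeR adjusted p = 0.230).

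Of 45 genes of the unfolded protein response and the eIF2α kinases, only *Atf6* was listed, the membrane-held transcription factor that acts through the ER stress element. None of the 4 eIF2α kinases was. *Atf6* stood at 17.5, 17.1 and 15.5 TPM at P6 and 24.4, 24.5 and 19.6 TPM at P56, and fell by 0.33 on the log2 scale (SE 0.09, edgeR adjusted p = 0.00911), a direction that turns with equal library sizes (0.03). Of 43 genes of the translocon and signal peptide processing, *Spcs3*, a subunit of the signal peptidase, was listed, at 22.6, 23.4 and 20.5 TPM at P6 and 32.3, 30.4 and 28.0 TPM at P56. It also fell by 0.33 (SE 0.09, edgeR adjusted p = 0.00911), and likewise turned with equal library sizes (0.04). None of 54 genes of ER-associated degradation and none of 65 genes of the vesicle coats and cargo receptors was in the table.

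Of 108 glycosylation genes, 2 were listed, and they differed in direction. *Alg10b*, which adds the last glucose to the N-glycan precursor, rose from 17.4 ± 1.54 TPM at P56 to 20.7 ± 0.728 TPM at P6 (SD, n = 3, log2 fold change 0.37, edgeR adjusted p = 0.00659), a call lost with limma on log2(TPM + 1). *Chst15*, a Golgi sulfotransferase of chondroitin sulfate, was lower, at 18.1 ± 1.12 TPM at P6 and 28.2 ± 1.07 TPM at P56 (SD, n = 3, log2 fold change -0.55, edgeR adjusted p = 0.000212), a call lost with equal library sizes (-0.18).

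*Trip11* had no other golgin beside it in the table. Of the 75 genes of the golgin and Golgi structure list, only *Huwe1* and *Macf1* were present, of which the first is a large ubiquitin ligase and the second a spectraplakin that links actin and microtubules. *Huwe1* stood at 41.0 ± 4.18 TPM at P6 and 53.5 ± 5.46 TPM at P56 (SD, n = 3, log2 fold change -0.26, edgeR adjusted p = 0.0266), and turned direction with equal library sizes (0.10). *Macf1* stood at 37.6 ± 1.38 TPM and 52.3 ± 7.17 TPM (SD, n = 3, log2 fold change -0.38, edgeR adjusted p = 0.00420), a call lost with equal library sizes (-0.02). In post-Golgi transport, 2 of 108 genes were listed and both were lower at P6. *Pcsk6*, a proprotein convertase, stood at 55.3 ± 0.975 TPM and 83.5 ± 14.1 TPM (SD, n = 3, log2 fold change -0.47, edgeR adjusted p = 0.00204), a call also lost with equal library sizes (-0.11). *Kif5b*, a kinesin heavy chain, stood at 31.2 ± 1.31 TPM and 39.5 ± 1.5 TPM (SD, n = 3, log2 fold change -0.22, edgeR adjusted p = 0.0280) and turned direction with equal library sizes (0.15).

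Of 48 other genes of the DNAJ, HSP70 and HSP90 chaperone systems, most of them cytosolic, 2 were in the table. *Dnajb4*, a J-domain protein of the cytosol, was higher at P6, with 60.2 ± 0.977 TPM against 49.8 ± 2.35 TPM (SD, n = 3, log2 fold change 0.39, edgeR adjusted p = 0.00313), where *Dnajc3* was lower. *Hsp90aa1*, the inducible cytosolic HSP90, was lower at P6, with 167 ± 9.63 TPM against 252 ± 3.33 TPM (SD, n = 3, log2 fold change -0.48, edgeR adjusted p = 0.000432), a call lost with equal library sizes (-0.11). Among these 13 genes, the fold change of *Dnajc3* was passed only by that of *Hyou1* on the lower side, and *Trip11* lay between *Macf1* and *Pcsk6*.

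**Figure D4:**
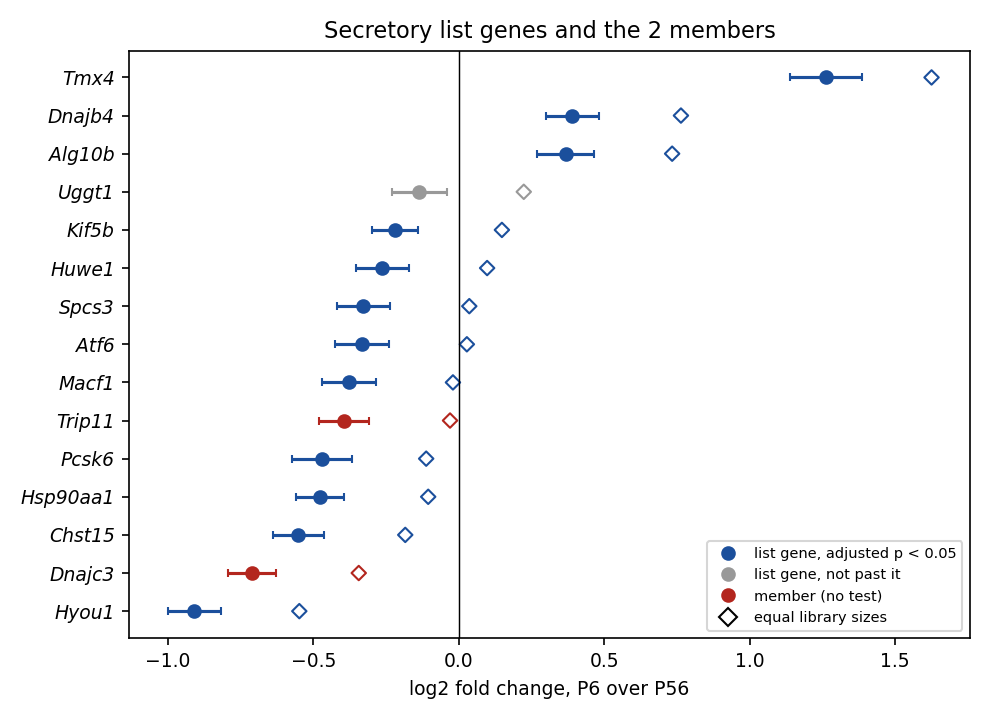
Log2 fold change of P6 over P56 for the 13 secretory list genes and for *Dnajc3* and *Trip11* (red, no test). Filled points with bars are the values at the recovered depth with their SE, open diamonds the values with equal library sizes. At the recovered depth *Dnajc3* lies next to *Hyou1* at the lower end (-0.71 and -0.91), and equal library sizes move every gene to the right.

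The genes whose course over the 6 libraries was most like that of each gene were found by the Euclidean distance between log2(TPM + 1) profiles centred on their mean. For *Dnajc3* they were *Vps13a*, a lipid transfer protein at organelle contacts (distance 0.154), *Rflnb*, a filamin-binding regulator (0.203), *Aff1*, a scaffold of the transcription elongation complex (0.221), *Prelp*, a matrix proteoglycan (0.225), and *Crim1*, a membrane protein that binds growth factors (0.250). The median distance over the table was 0.937. *Vps13a* stood at 2.80 ± 0.275 TPM at P6 and 5.54 ± 0.686 TPM at P56, and *Prelp* at 198 ± 10.3 TPM and 393 ± 27.2 TPM (SD, n = 3), so the likeness is of course and not of level. At the low level of *Vps13a* the pseudocount of 1 also bears on its place. Its log2(TPM + 1) difference was -0.78 beside -0.81 for *Dnajc3*, but its fitted log2 fold change was -0.87 beside -0.71, further off than those of *Aff1* (-0.68) and *Rflnb* (-0.80).

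For *Trip11* the nearest gene was *Spcs3* at 0.0667, the signal peptidase subunit described above, ahead of *Myo1c*, a myosin of the cell cortex (0.0799), *Ttc39b* (0.107), *D5Ertd579e* (0.111) and *Neb*, the giant protein of the muscle thin filament (0.127), with a table median of 0.643. *Neb* was barely present, at 0.187 ± 0.0208 TPM at P6 and 0.683 ± 0.15 TPM at P56 (SD, n = 3), and its log2 fold change of -1.73 is far from that of *Trip11*, so its nearness rests on the pseudocount of 1. The profiles of *Dnajc3* and *Trip11* were 0.462 apart, which made *Trip11* the 45th nearest gene to *Dnajc3* and *Dnajc3* the 112th nearest to *Trip11*. These distances rest on 6 libraries in 2 groups, and any gene that was lower at P6 by a like amount comes out near.

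**Figure D5:**
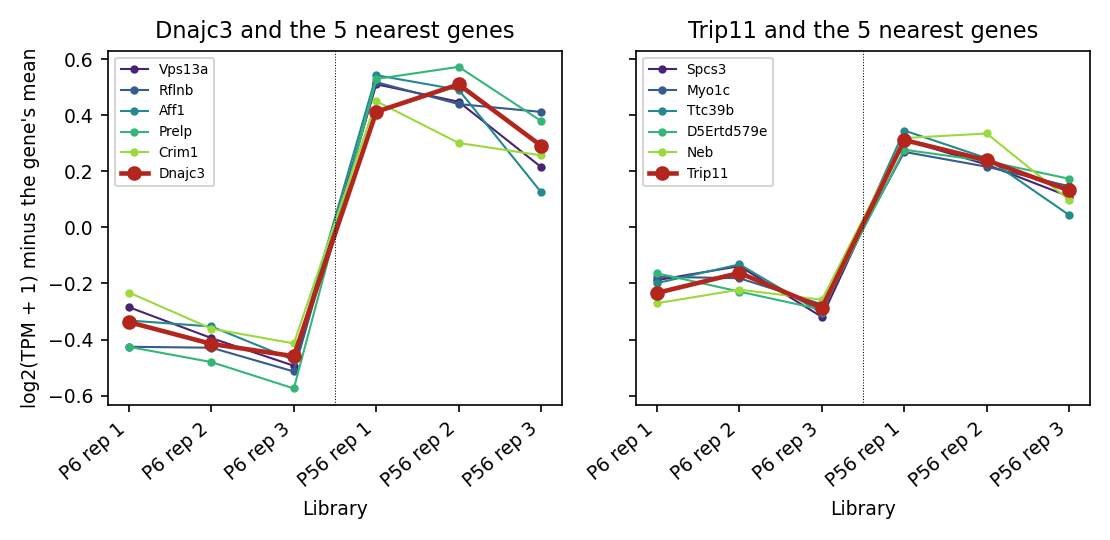
Profiles of *Dnajc3* (left, red) and *Trip11* (right, red) with their 5 nearest genes over the 6 libraries, as log2(TPM + 1) minus the mean of each gene. Points are libraries, and the dotted line parts P6 from P56. All 12 lines lie below 0 at P6 and above 0 at P56, with a larger step for the *Dnajc3* set.

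Markers of other cell types were also listed. Of 72 markers in 8 lists, 7 were in the table, all of muscle or mural cells. The 5 smooth muscle and pericyte markers listed (*Acta2*, *Tagln*, *Cnn1*, *Cspg4* and *Mcam*, of 8) summed to 898 to 1263 TPM at P6 and 623 to 743 TPM at P56, without overlap. The 2 skeletal muscle markers listed (*Acta1* and *Neb*, of 7) lay the other way, with a sum of 151 to 173 TPM at P6 and 542 to 562 TPM at P56, also without overlap and lower at P6 as *Dnajc3* and *Trip11* were. Nearly all of that sum was *Acta1*, the skeletal muscle actin, at 163 ± 11.3 TPM and 551 ± 9.89 TPM (SD, n = 3, log2 fold change -1.64). In the smooth muscle and pericyte sum the largest part was *Acta2*, at 489 ± 106 TPM and 297 ± 29.5 TPM (SD, n = 3). *Cspg4* was not called, at 22.8 ± 1.12 TPM and 21.0 ± 5.08 TPM (SD, n = 3, log2 fold change 0.23, edgeR adjusted p = 0.237). The lists for fibroblasts, endothelium, lymphocytes and epithelium had none. Matrix genes outside these lists were in the table at both ages, among them *Col6a3* (609 TPM at P6, 639 TPM at P56) and *Col5a2* (440 and 340 TPM). Others differed more between the ages and in both directions. *Col12a1* (74.1 and 7.54 TPM) and *Lox* (207 and 113 TPM) were higher at P6. *Prelp* (198 and 393 TPM) and *Mgp* (93.4 and 175 TPM) were lower. The part of cell makeup in the values of *Dnajc3* and *Trip11* was not tested.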

How the data were processed

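RNA was sequenced from 3 P6 and 3 P56 mouse libraries, grouped by the age and number in their titles. Per the labels and the study's methods, the authors selected poly(A) RNA, sequenced it on a BGISEQ platform, ran HISAT and Bowtie2 for alignment, quantified genes with RSEM (printed as RSE in the methods) and compared ages with DESeq2. No source used here gives versions, genome build or strand setting. The table as deposited holds estimated counts without normalization, and TPM and FPKM, the last 2 scaled over all genes of a library. The authors' log2 ratio, p-value and q-value columns, which hold their own comparison, were not used.

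Counts were rounded and fitted with edgeR 4.0.16 (quasi-likelihood, R 4.3.3) for 310 genes averaging 10 counts or more. As library size it took the relative depth, the median ratio of count to FPKM over 196 genes with FPKM above 5 in every library. P-values were adjusted by Benjamini-Hochberg over the table with a threshold of 0.05. The fit was tested on simulated data. Alternatives were equal library sizes, TMM, median-of-ratios, DESeq2 1.42.0, limma 3.58.1 on log2(TPM + 1) and log2(TPM + 0.1), other filters, a depth from genes with FPKM above 1, the replicate number as a block, and each library left out. Depth limits each value by counting error, 2.45% to 3.45% for the 2 genes.

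Named genes were *Dnajc3* and *Trip11*, the list genes found in the table, the 5 nearest profiles and the neighbours in rank. The holders of the ER stress element outside the table were named after the search. The 2 genes and the lists were chosen with earlier results of these data known. Promoters came from RefSeq (GRCm38.p6), gene models from GENCODE (GRCm38), and coordinates refer to these, not to the authors' build. Python 3.11.15 was used.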

Additional observations from a re-analysis of the deposited data

How the results depend on the processing

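The depth of the libraries decided most. With equal library sizes the log2 fold changes were -0.34 for *Dnajc3* and -0.030 for *Trip11*, and the list count dropped from 12 to 4 (3 higher, 1 lower). *Atf6* (0.028), *Huwe1* (0.10), *Kif5b* (0.15), *Spcs3* (0.036) and *Uggt1* (0.22) turned direction there. Equal sizes leave the measured depth difference in the values, which moved the median of all genes from -0.03 to 0.34 and the whole-table calls from 199 (94 higher, 105 lower) to 182 (148 higher, 34 lower). With limma the values were -0.81 and -0.46 at a pseudocount of 1, and -0.83 and -0.49 at 0.1. The other scalings, filters and tools moved neither gene by more than its replicate SD on the log2 scale (0.0598 and 0.0572). Leaving out each library in turn gave -0.74 to -0.67 for *Dnajc3*, -0.43 to -0.37 for *Trip11*, 9 to 13 list genes and 172 to 221 genes of the table. The calls lost that way were *Atf6* without P56 replicate 2, *Huwe1* without P6 replicate 1 or 3 or P56 replicate 2, and *Kif5b* without any P6 replicate or P56 replicate 2, while *Uggt1* was called without P56 replicate 3 (-0.21). The replicate numbers were checked for pairing across the ages. Deviations of same-numbered libraries correlated at 0.0965, 0.131 and 0.239 over 310 genes, so not every number passed 0.1, and P56 replicate 1 was closer to P6 replicate 2 (0.0974). A fit with the replicate block gave -0.71 and -0.39 for the 2 genes, the same 12 list calls in number and 213 calls in the table against 199.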

Other observations

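Some other listed genes that act in the secretory pathway or on its membranes stood outside the lists. They were picked after their values were seen, so they are given without a test, as mean TPM with SD (n = 3). *Lfng*, a Golgi glycosyltransferase that extends O-fucose on Notch, stood at 25.3 ± 1.10 at P6 and 64.8 ± 4.34 at P56, and *Cst3*, a secreted cysteine protease inhibitor, at 791 ± 53.5 and 1636 ± 45.0. *Gcnt4*, a Golgi enzyme that branches O-glycans, went the other way, at 1.32 ± 0.0896 and 0.483 ± 0.0929, on 53 to 58 counts a library at P6 and 11 to 17 at P56. *Cers6*, an ER ceramide synthase, was at 8.79 ± 0.635 and 8.71 ± 0.773, where the ages overlapped in TPM but not in depth-scaled counts (409 ± 14.5 and 376 ± 6.12). *Nomo1* and *Esyt1*, both ER membrane proteins, were at 39.4 ± 3.21 and 46.0 ± 2.76, and at 127 ± 5.78 and 154 ± 2.65, without overlap in TPM, although the ages overlapped for *Nomo1* in depth-scaled counts (1234 ± 88.7 and 1328 ± 76.7). *Vps13d*, a relative of the *Dnajc3* neighbour *Vps13a*, was at 11.7 ± 0.830 and 15.5 ± 2.74, where the ages overlapped on both scales.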
